A study of Mus musculus with 6 samples.

Results

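Postsynaptic scaffold and synaptic adhesion genes were followed after fluoxetine and after vehicle in mouse cortex, in the messenger RNA that S100a10-expressing cells held on their ribosomes. The genes were taken from a list of 28 symbols, and every array probe set annotated to 1 of these symbols alone was used. A probe set is a group of short oligonucleotides that together read 1 transcript, and the probe set with the highest mean over all arrays stood for its gene. Of the 28 genes, 26 had such a probe set (72 in all), and 25 had at least 1 above the filter on low values, a geometric mean intensity of at least 50, among 12248 genes above it in the series. Shank2 and Ppp1r9b (spinophilin) had no probe set annotated to them alone, and the only probe set of Shank1 read 2.82 to 3.56 in log2 over the arrays, far below the filter.

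The 3 fluoxetine samples came from S100a10 bacTRAP mice that drank 0.167 mg/ml fluoxetine, a serotonin reuptake inhibitor, in 1% saccharine, and the 3 vehicle samples from mice of the same line given the saccharine alone, both over 15 to 18 days. All the mice carried the bacterial artificial chromosome transgene of line ES691, in which the S100a10 control region drives a tagged ribosomal protein, and had been crossed from FVB towards C57BL/6 for 3 to 5 generations. Ribosomes carrying the tag were purified from cortex with their RNA (TRAP), and 15 ng of each RNA was amplified in a pair of cycles and hybridised to an Affymetrix array. The labels call the samples biological replicates but do not say how many animals went into each, or their age or sex, so p-values measure the spread between these samples.

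The submitters state that the transgene also labels some non-neuronal cells, and the published selection of probe sets that they advise was not used here. All 5 pyramidal neuron markers lay above the filter, among them Neurod6 at 12.26 to 12.71 in log2 over the 6 arrays. So did all 6 interneuron, all 8 astrocyte and 5 of 6 microglial markers, though the astrocyte marker Gfap passed only through fluoxetine 1 and 3 (12.13 and 9.02). Fewer cells of a type and less RNA per cell cannot be told apart in such samples. The arrays had log2 medians of 5.56 to 5.60 and upper quartiles of 8.96 (fluoxetine 2) to 9.17 (vehicle 2), and correlated pairwise at 0.993 to 0.997 over all probe sets, and their number limits the precision of each value. Across the array, limma's moderated test called 0 of 22326 probe sets (0%; adjusted p under 0.05, Benjamini-Hochberg), and 563 had an unadjusted p under 0.05.

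The postsynaptic density is a dense protein layer under the membrane of excitatory synapses. MAGUK proteins hold receptors there through PDZ domains, SAPAP proteins bind the guanylate kinase domain of the MAGUKs, and SHANK proteins bind the SAPAPs and link the layer to Homer and actin. Across the cleft, neurexins of the axon terminal bind neuroligins and LRRTM proteins of the dendrite, and gephyrin forms the corresponding scaffold at inhibitory synapses. Some of these messengers, including Camk2a, Shank1, Shank3, Dlgap3, Dlg4 and Nrgn, are known to be carried into dendrites and translated there.

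Taken as a list, the scaffold and adhesion genes were slightly lower with fluoxetine, and no gene among them passed the test. Of the 25 measured, 22 were lower and 3 (Camk2a, Camk2d and Nrxn2) were higher, that is 88% lower, where 68.5% of all tested genes were lower by the same measure. Their median difference, fluoxetine minus vehicle, was −0.13 in log2 (range −0.90 to 0.18), beside −0.06 over all tested genes. Leaving out 1 array moved that median to −0.07 without vehicle 2 (all tested genes −0.03) and to −0.18 without vehicle 3 (all tested genes −0.07). Without fluoxetine 1 it was −0.10, beside −0.09 over all tested genes. The smallest adjusted p by limma was 0.999, and 0 of the 25 had an unadjusted p under 0.05, against 2.66% of all tested genes. The groups did not overlap for 1 of the 25 genes, Nlgn2, which was lower, where 5.99% of all tested genes were lower without overlap. In all 25 genes the wider of the within-group ranges exceeded the difference between the groups. That count was not taken over all tested genes, so it does not set the list apart. After quantile normalization 19 of 25 were lower and after a shift to a common median 20 were, against 50.7% and 50.6% of all tested genes. The medians of the list were then −0.06 and −0.07, and those of all tested genes 0.00 under both.

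The errors bound how large an undetected difference could be. The median standard error of the 25 differences was 0.18 in log2. The 95% interval of the difference lay within a 1.5-fold change either way for 15 genes and within a 2-fold change for 21. The genes whose intervals reached past 2-fold were Dlgap1, Dlgap2, Shank3 and Camk2a. These intervals are not adjusted for the number of genes.

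**Figure D1:**
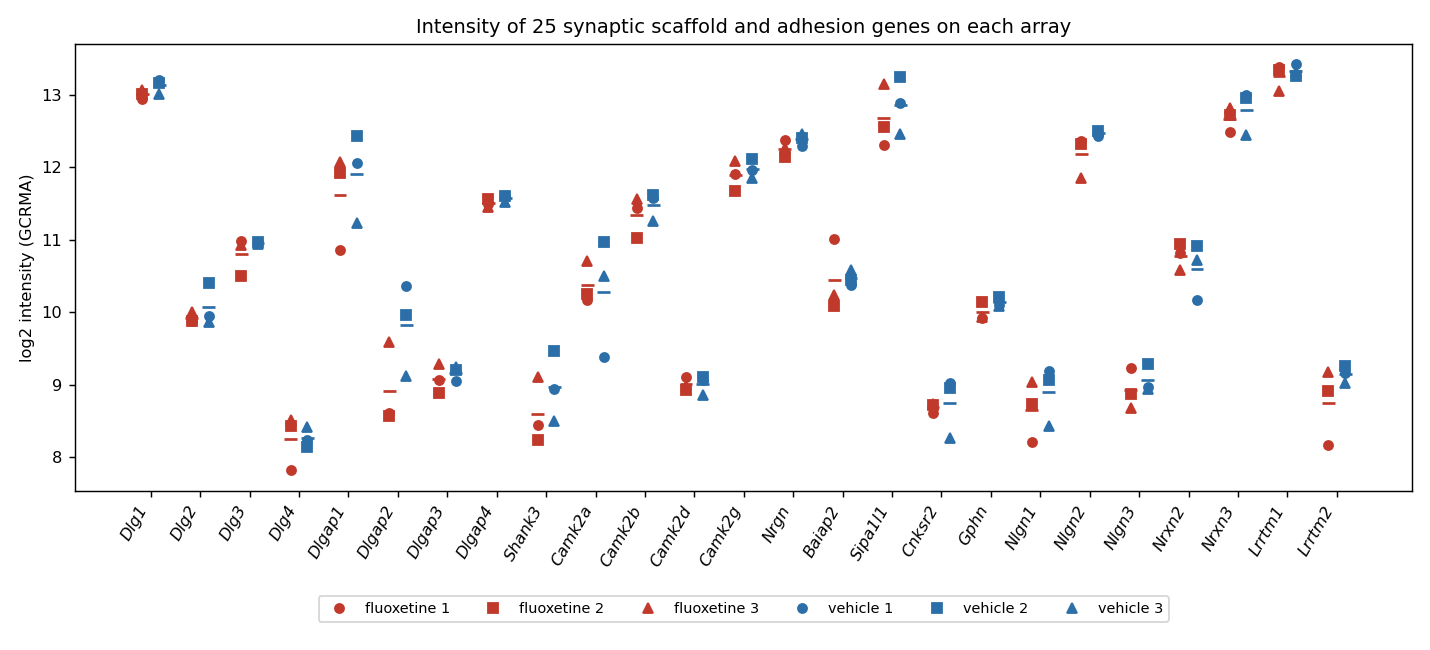
Log2 intensity of the 25 measured genes on each array, fluoxetine arrays in red at the left of each gene and vehicle arrays in blue at the right, with a dash for the mean of 3. Levels of different genes come from different probe sets and are not comparable. The red and blue points overlap in every gene except Nlgn2.

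Among the MAGUK scaffolds all 4 genes were lower in their brightest probe sets, where 68.5% of all tested genes were lower. They were lower by 0.01 to 0.16 in log2, with limma's unadjusted p at 0.301 or more. Dlg4 was higher after either rescaling of the arrays (0.0487 and 0.0543). Dlg1 (SAP97), which carries AMPA receptors towards the membrane, measured 12.94, 13.01 and 13.06 with fluoxetine and 13.20, 13.16 and 13.01 with vehicle. Vehicle 1 and 2 were above the highest fluoxetine value and vehicle 3 was inside the fluoxetine range, so the groups overlapped. The difference was −0.12 ± 0.11 (SE; 95% interval −0.39 to 0.14). Its second probe set read 8.11, 8.17 and 8.13 with fluoxetine and 8.41, 8.26 and 8.32 with vehicle, without overlap. Dlg4, the major MAGUK of mature excitatory synapses, measured 7.82, 8.43 and 8.51 with fluoxetine and 8.24, 8.13 and 8.41 with vehicle. Fluoxetine 1 was the lowest of the 6 arrays and the other fluoxetine arrays were the highest, and the difference of −0.01 ± 0.20 became 0.21 without fluoxetine 1. The second probe set of Dlg4 spread widely within the fluoxetine group, at 6.90, 8.01 and 6.18, while the vehicle arrays lay at 6.81, 6.76 and 6.88. That probe set differed by 0.22 ± 0.41. Dlg2, a MAGUK close to Dlg4 that also binds NMDA receptors, differed by −0.15 ± 0.16, and by 0.02 without vehicle 2. The second probe set of Dlg2 went the other way, by 0.18 ± 0.12. Dlg3 (SAP102), abundant at young synapses, differed by −0.16 ± 0.15, almost wholly through fluoxetine 2, without which it differed by −0.0022.

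The SAPAP linkers held the largest difference in the list. Dlgap2 measured 8.61, 8.56 and 9.58 with fluoxetine and 10.36, 9.96 and 9.12 with vehicle. Fluoxetine 3 lay above vehicle 3, while the other 2 arrays of each group stood more than a log2 unit apart. The difference was −0.90 ± 0.38 (SE; 95% interval −1.80 to 0.00). By limma the adjusted p was 0.999 and the unadjusted p 0.0504. Leaving out 1 array at a time gave −1.24 to −0.63. Dlgap2 had 1 probe set, so no second reading of it was at hand. Dlgap1 differed by −0.29 ± 0.40, with 3 of its 4 other probe sets lower (−0.32, −0.27 and −0.17) and the dimmest higher (0.41), and by 0.09 without fluoxetine 1. Dlgap3 (−0.09 ± 0.14) and Dlgap4 (−0.07 ± 0.10, but 0.011 after quantile normalization) lay within a standard error of 0, and the second probe set of Dlgap4 differed by −0.12.

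Of the SHANK genes only Shank3 was measured. Shank3 read 8.45, 8.24 and 9.10 with fluoxetine and 8.94, 9.47 and 8.50 with vehicle. Fluoxetine 3 and vehicle 3 crossed over as they did for Dlgap2, and the difference was −0.37 ± 0.30 (95% interval −1.08 to 0.34). It was −0.62 without fluoxetine 3 and −0.12 without vehicle 2.

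**Figure D2:**
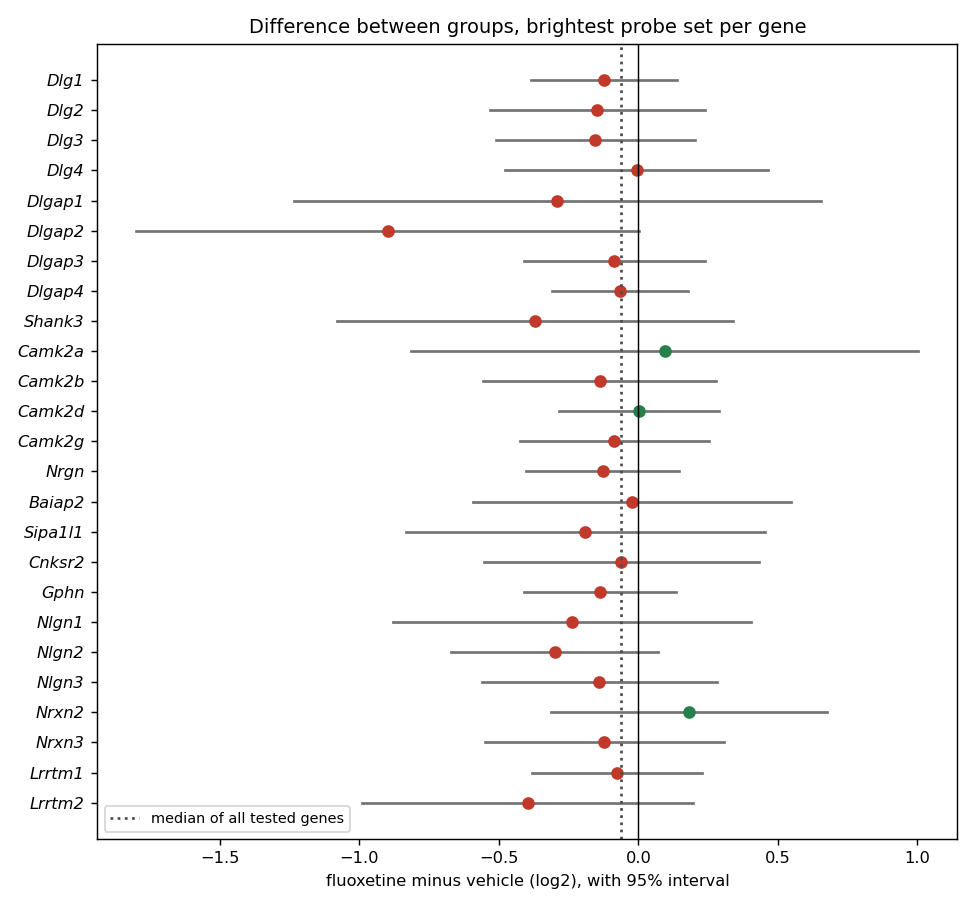
Difference between groups for the 25 genes (x axis, fluoxetine minus vehicle in log2, points red below 0 and green above) with its 95% interval from limma, the gene names running down the y axis. Of the points, 22 lie below 0, Dlgap2 lies furthest out at −0.90, and every interval includes 0. The dotted line marks the median of all tested genes, −0.06.

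CaMKII, the calcium and calmodulin dependent kinase of the postsynaptic density, showed small differences in all 4 of its subunit genes. Camk2a, the main forebrain subunit, measured 10.17, 10.25 and 10.70 with fluoxetine and 9.38, 10.96 and 10.50 with vehicle. The vehicle arrays held both the lowest and the highest value, so the fluoxetine range lay inside theirs. The difference of 0.09 ± 0.39 was −0.36 without vehicle 1 and 0.44 without vehicle 2. The next brightest probe set of Camk2a was also lowest on vehicle 1 (9.10) and highest on vehicle 2 (10.52), and differed by −0.14. Camk2b, the other main neuronal subunit, differed by −0.14 ± 0.18. Camk2g, a more widely expressed subunit, differed by −0.09 ± 0.14, and its second probe set by 0.21. Camk2d, likewise a widely expressed subunit, differed by 0.00 ± 0.12 (95% interval −0.28 to 0.29).

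Nrgn encodes neurogranin, a small protein that binds calmodulin in spines. It measured 12.37, 12.14 and 12.26 with fluoxetine and 12.29, 12.41 and 12.45 with vehicle. The highest fluoxetine value lay above the lowest vehicle value, and the difference was −0.13 ± 0.12 (95% interval −0.40 to 0.15), or −0.19 to −0.07 with 1 array left out. Of the 6 listed messengers known to enter dendrites, 5 were measured, with 4 lower and 1 higher and a median of −0.09.

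The adaptors that join scaffolds to actin and small GTPases differed by 0.19 or less in their brightest probe sets. Sipa1l1 (SPAR), a Rap GTPase activating protein that shapes spines, measured 12.31, 12.56 and 13.15 with fluoxetine and 12.89, 13.25 and 12.45 with vehicle. The ranges nearly coincided, and the difference of −0.19 ± 0.27 was 0.0030 without vehicle 2. Baiap2 (IRSp53), which bends membranes and binds actin regulators, differed by −0.02 ± 0.24, and was higher after either rescaling (0.0502 and 0.0368). Its dimmest probe set above the filter read 7.51, 7.48 and 7.38 with fluoxetine and 7.34, 7.21 and 7.24 with vehicle, higher without overlap, while its 3 brighter ones were lower by 0.02 to 0.14. Cnksr2, a scaffold of Ras signalling, differed by −0.06 ± 0.21, and its second probe set by −0.27 ± 0.14.

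At inhibitory synapses gephyrin clusters GABA-A and glycine receptors. Gphn measured 9.92, 10.14 and 9.94 with fluoxetine and 10.10, 10.21 and 10.08 with vehicle. Fluoxetine 2 lay inside the vehicle range and the other 2 fluoxetine arrays lay below it, and the difference was −0.14 ± 0.12 (95% interval −0.41 to 0.14). A second probe set of nearly the same brightness went the other way, by 0.13, and the dimmest differed by −0.10.

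Nlgn2, the neuroligin of inhibitory synapses, was the gene whose groups did not overlap. It measured 12.36, 12.31 and 11.85 with fluoxetine and 12.43, 12.49 and 12.49 with vehicle. The vehicle arrays lay within 0.06 of each other, and most of the difference came from fluoxetine 3. The difference was −0.30 ± 0.16 (SE; 95% interval −0.67 to 0.07), or −0.14 without fluoxetine 3. By limma the adjusted p was 0.999 and the unadjusted p 0.098. Nlgn1, the neuroligin of excitatory synapses, differed by −0.24 ± 0.27 and Nlgn3, found at both kinds, by −0.14 ± 0.18. Without fluoxetine 1 the difference of Nlgn1 was −0.0107, and without fluoxetine 3 that of Nlgn3 was −0.0125.

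The neuroligins' partners went both ways. Nrxn2 measured 10.82, 10.94 and 10.58 with fluoxetine and 10.16, 10.91 and 10.72 with vehicle. Vehicle 1 was the lowest array and the other vehicle arrays lay inside the fluoxetine range. The difference was 0.18 ± 0.21, or −0.04 without vehicle 1. Nrxn3 differed by −0.12 ± 0.18 (−0.30 to −0.02 with 1 array left out), and 2 of its 3 other probe sets were lower and 1 higher (0.07). Lrrtm2, a neurexin ligand of excitatory synapses, measured 8.16, 8.91 and 9.18 with fluoxetine and 9.17, 9.25 and 9.03 with vehicle. Fluoxetine 1 stood well below the other arrays. The difference was −0.40 ± 0.25 (95% interval −0.99 to 0.20), −0.10 without fluoxetine 1, and −0.03 in the second probe set. Lrrtm1, its relative, differed by −0.08 ± 0.13, with both other probe sets lower (−0.11 and −0.09).

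Probe sets of the same gene did not always differ in the same direction. Of the 25 genes, 15 had more than 1 probe set above the filter. Of their 26 further probe sets, 17 went the way of the brightest and 9 the other way, in Dlg2, Dlg4, Dlgap1, Camk2a, Camk2g, Baiap2, Gphn and Nrxn3. The same count was not taken over all tested genes. Over all 51 probe sets above the filter, 39 (76.5%) were lower, against 66.3% of all tested probe sets, and the median difference was −0.10. The groups did not overlap for 3 of the 51 (5.88%), those of Dlg1, Baiap2 and Nlgn2 above, against 8.05% of all tested probe sets. Of the genes' 21 dim probe sets that missed the filter, 14 gave a higher mean with fluoxetine, as did 72.6% of all that missed it.

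**Figure D3:**
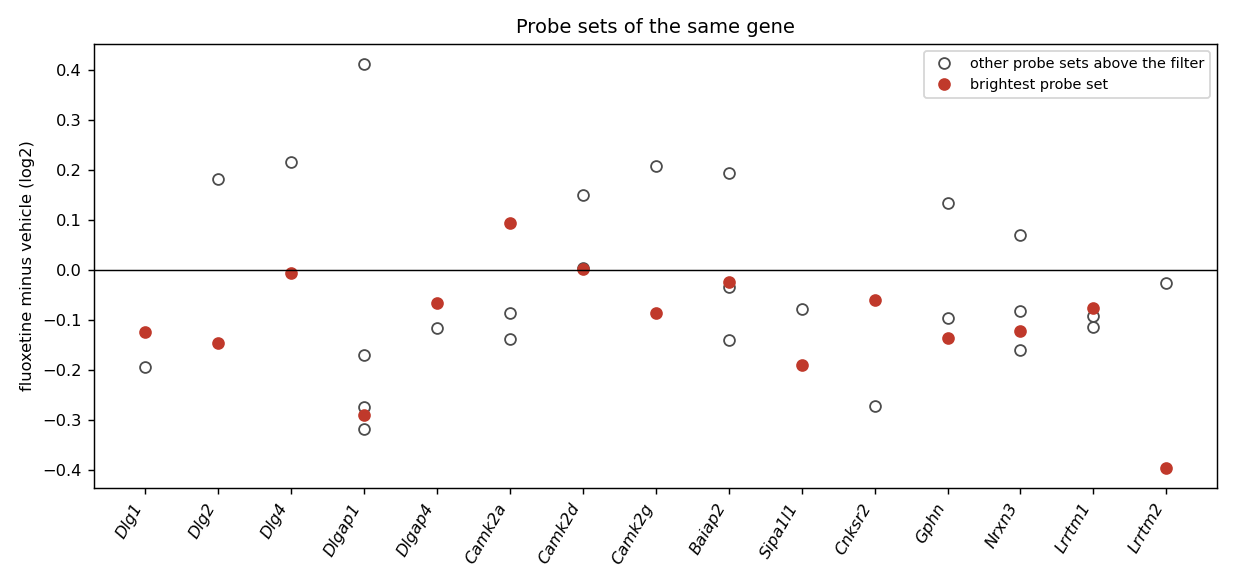
Difference between groups (y axis, fluoxetine minus vehicle in log2) of each probe set above the filter, for the 15 genes with more than 1. Filled points are the brightest probe set and open points the others. Open points lie across 0 from the filled one in 8 genes, by up to 0.41 in Dlgap1.

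A difference between 2 probe sets within an array is free of any constant shift of that array, though not of scaling that varies with intensity, and was used to ask whether members moved relative to each other. The 26 pairs of probe sets of 1 gene and 6 pairs of related genes were compared, and the groups overlapped in all 32. The smallest exact two-sided permutation p was 0.2 (1 after Benjamini-Hochberg over the 32), where 0.1 is the smallest that 3 arrays against 3 allow. The largest shift between relatives was that of Dlgap1 over Dlgap2, which averaged 2.70 ± 0.58 with fluoxetine and 2.09 ± 0.38 with vehicle (log2, within array, SD, n = 3 each). The means differed by 0.61, with an exact permutation p of 0.2. Nrxn3 over Nrxn2 shifted by −0.30, Lrrtm2 over Lrrtm1 by −0.32, Camk2a over Camk2b by 0.23, Dlg4 over Dlg2 by 0.14 and Nlgn2 over Nlgn1 by −0.06.

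Several of the 25 genes had their extremes on the same arrays. Vehicle 3 was the lowest of the vehicle arrays for 17 of the 25 genes (68%), against 37.7% of all tested genes, and vehicle 2 was the highest for 15 (60%), against 48.4%. Fluoxetine 3 was the highest of the fluoxetine arrays for 15 (60%), against 29.2%. Vehicle 2 was the highest of all 6 arrays for 12 of the 25 (48%), against 31.3%. In 8 genes (32%, against 14.1% of all tested genes) fluoxetine 1 and vehicle 3 were each the lowest of their group. These were Dlg1, Dlgap1, Sipa1l1, Cnksr2, Gphn, Nlgn1, Nrxn3 and Lrrtm2, a set picked by this pattern and so given without a test. Dlgap1, shown in full after its values were seen, measured 10.86, 11.91 and 12.07 with fluoxetine and 12.06, 12.43 and 11.23 with vehicle. A dimmer probe set of it read 9.54, 9.77 and 11.04 with fluoxetine and 10.68, 11.61 and 8.56 with vehicle, where vehicle 3 stood 2 or more log2 units below the other vehicle arrays.

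The nuclear and non-coding transcripts, of which 6 of 7 lay above the filter (not Mirg) and none read 0, differed in part on the same 2 arrays: Malat1, Meg3 and Snhg11, 3 of the 6, were lowest of their group on both, and Neat1, Miat and Rian were not. The summed intensity of the 6 was 885 to 1549 with fluoxetine and 965 to 2020 with vehicle, and the low ends were fluoxetine 1 and vehicle 3. Malat1 read 6.85, 8.91 and 9.25 with fluoxetine and 9.85, 8.85 and 6.99 with vehicle in log2. Meg3 read 7.04, 7.84 and 8.18 with fluoxetine and 8.21, 8.06 and 6.84 with vehicle. Their part in the levels of the synaptic genes was not tested. With both arrays left out, an alternative added after seeing the data, 22 of the 25 synaptic genes were lower, with a median of −0.20, against 74.1% and −0.10 for all tested genes.

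**Figure D4:**
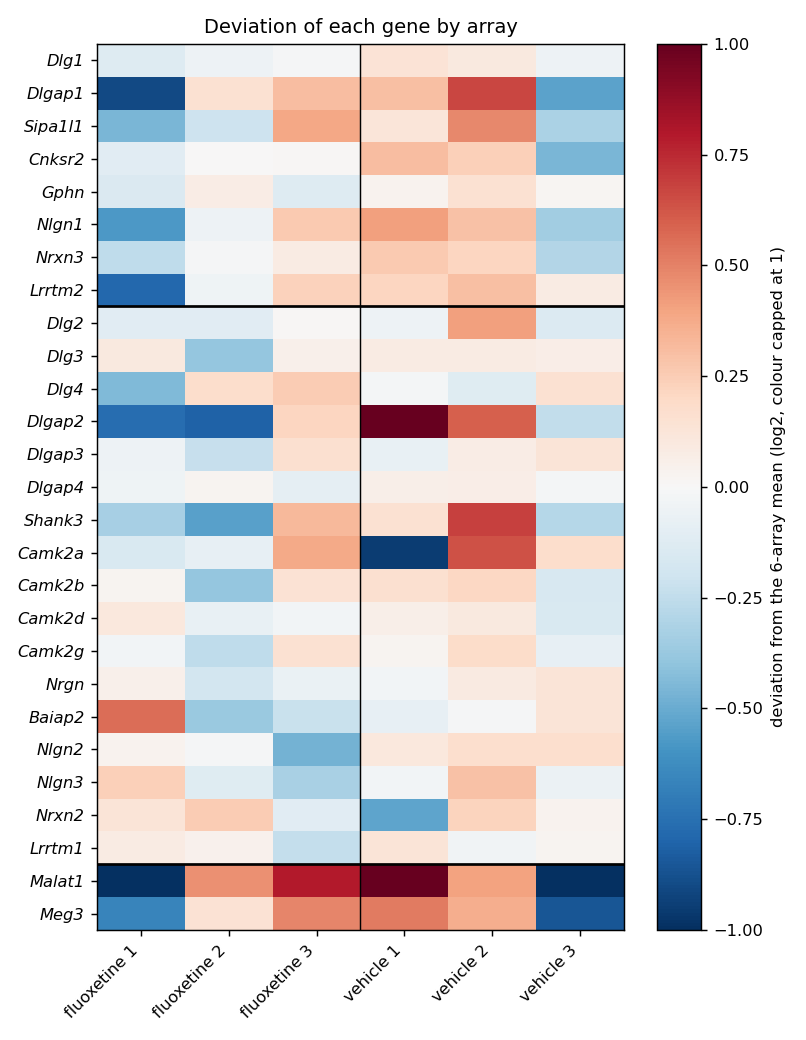
Deviation of each gene from its mean over the 6 arrays (colour, log2, capped at 1 either way), with fluoxetine arrays in the left columns and vehicle arrays in the right. The top block holds the 8 genes lowest in their group on both fluoxetine 1 and vehicle 3, the middle block the other 17, and the bottom rows Malat1 and Meg3, which are blue on the same 2 arrays. Malat1 and Meg3 are 2 of the 6 measured nuclear and non-coding transcripts. Neat1, Miat and Rian, not drawn, did not follow this pattern.

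Some markers of other cell types also differed between these arrays. All 5 pericyte and smooth muscle markers above the filter (not Kcnj8, and none at 0) were lower with fluoxetine, as were 68.5% of all tested genes. Their summed intensity was 6889 to 9205 with fluoxetine and 8568 to 13485 with vehicle, lowest on fluoxetine 1 and highest on vehicle 3. That of the 3 endothelial markers above it (not Pecam1 or Tek, and none at 0) was 214 to 330 with fluoxetine and 300 to 358 with vehicle, again lowest on fluoxetine 1. The 4 measured layer 5 markers (not Etv1) were each lowest on fluoxetine 1, as were 17% of all tested genes. The summed intensity of the 8 astrocyte markers (none at 0), which bright members such as Gja1 dominate, was 39642 to 44245 with fluoxetine and 39053 to 44342 with vehicle. Single astrocyte markers were uneven, with Gfap at 12.13, 4.49 and 9.02 with fluoxetine and 4.70, 5.24 and 5.67 with vehicle. Gfap passed the filter only through fluoxetine 1 and 3. Sox9 was higher without overlap, by 0.58 ± 0.11 (limma's adjusted p 0.999). Of all tested genes 8.31% did not overlap, in either direction. Of the 8 astrocyte markers 4 were lower and 4 higher (median 0.04). On fluoxetine 1, 4 of the 8 were highest (50%, against 25.6% of all tested genes). On fluoxetine 2, 4 of the 8 were lowest (50%, against 32.3%). The 4 oligodendrocyte precursor markers above the filter (not Olig2, and none at 0) summed to 2015 to 5020 with fluoxetine and 2401 to 2762 with vehicle, lowest on fluoxetine 2 and highest on fluoxetine 1. Fluoxetine 2 was the lowest of all arrays for 8 of the 25 synaptic genes (32%), against 32.3% of all tested genes, and without it 18 of the 25 were lower, against 57.2%. All 5 microglial markers above the filter (not P2ry12) were higher with fluoxetine, where 68.5% of all tested genes were lower. Their summed intensity was 1546 to 2226 with fluoxetine and 1403 to 1859 with vehicle. Of the pyramidal neuron markers 3 of 5 were lower (median −0.0015), and of the interneuron markers 4 of 6 (median −0.12). Vip, an interneuron marker, differed by −0.39 ± 0.10 (limma's adjusted p 0.999), lower without overlap, as were 5.99% of all tested genes. The part of these markers in the result was not tested.

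Synaptic genes outside the list lay close to all tested genes in the share that was lower and in their median. Of 77 companion genes, 67 were measured, with 48 lower (71.6%, against 68.5% of all tested genes), 19 higher and a median of −0.07 (−0.06 over all), and none passed limma's test (smallest adjusted p 0.999). The groups did not overlap for 4 of the 67 (5.97%), against 8.31% of all tested genes in either direction. Under either rescaling of the arrays 38 of the 67 were lower. Companion scaffolds and spine proteins had 23 of 32 lower (median −0.08). For every companion only the brightest probe set is given, although many of the named ones had more than 1. Homer1, which crosslinks SHANK proteins, had 6. Homer1 measured 13.41, 13.72 and 13.17 with fluoxetine and 14.05, 13.96 and 13.86 with vehicle. Its groups did not overlap and the difference was −0.52 ± 0.16 (SE). By limma the adjusted p was 0.999 and the unadjusted p 0.0132. Ppp1r9a (neurabin), an actin-binding relative of spinophilin, differed by −0.23 ± 0.11 and Sipa1l3, a relative of Sipa1l1, by 0.25 ± 0.14, both without overlap. Sorbs2, an adaptor of the actin cytoskeleton, differed by −0.46 ± 0.20.

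Companion adhesion genes had 22 of 30 lower (median −0.07). Lrrtm4 and Lrrtm3, of the same family as Lrrtm1 and Lrrtm2, differed by −0.53 ± 0.21 and −0.30 ± 0.16. The groups of both overlapped. Lrrc4, a postsynaptic adhesion protein, differed by −0.28 ± 0.16 and Adgrl2, a latrophilin, by −0.25 ± 0.16. In the companion list for inhibitory synapses 3 of 5 were lower. Insyn2a, an inhibitory synaptic factor, measured 8.79, 8.58 and 8.96 with fluoxetine and 9.05, 9.11 and 9.15 with vehicle, lower without overlap (−0.32 ± 0.13). Nsf, an ATPase of membrane fusion, differed by 0.10 ± 0.12, Iqsec3, an exchange factor that binds gephyrin, by −0.12 ± 0.20 and Lhfpl4, a partner of GABA-A receptors and Nlgn2, by −0.05 ± 0.12 (0.0234 and 0.0119 after the rescalings).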

How the data were processed

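Per the submitters' processing notes the authors used GCRMA, of no stated version. The deposited table holds linear intensity with a column for each array, and all columns were used. GCRMA corrects background by probe sequence and aligns arrays, which compresses dim values and can reduce shifts common to most genes; in these values 68.5% of tested genes were still lower with fluoxetine. Gene names came from the platform annotation (34945 probe sets had 1 symbol, 932 several and 9160 none); 0 symbols changed against RefSeq and 204 were not found there. Of 45037 probe sets without array controls, the 22326 with a geometric mean of at least 50 entered limma 3.58.1 (R 4.3.3; lmFit and eBayes on log2 values without an offset, two-sided, all arrays in 1 unblocked fit). P-values were adjusted over all 22326 (Benjamini-Hochberg, threshold 0.05). The code was tested on simulated data.

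The members and lists were chosen with earlier results of these data known. Array values were given for genes without overlap, for the smallest p of each role group, and for Camk2a, Dlg4, Shank3, Nlgn2, Gphn and Nrgn. Up to 4 companions a list were named, non-overlapping first and then by smallest p. Alternatives covered the filter, an offset, scaling, variance model, probe set choice, a block and leaving out arrays. One marker list is not reported here.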

Additional observations from a re-analysis of the deposited data

How the results depend on the processing

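None of the 20 alternatives called a probe set (0 at an adjusted p under 0.05; 318 to 2631 at an unadjusted p under 0.05), with 0 also at a threshold of 0.10. A replicate block leaves the differences of this balanced design unchanged, so again 22 of the 25 genes and 48 of the 67 companions were lower. It changed no call. Same-numbered arrays did not deviate together (correlations of deviations −0.25, −0.03 and −0.50), so the numbers were not taken as pairs. Leaving out 1 array at a time, 18 to 23 of the 25 were lower. The remaining alternatives gave 19 to 22 of 25 (22 of 26 with no filter). Of the 25 genes, 11 kept their sign in all 18 alternatives and 14 did not. Settings that changed only the filter, the block or the shared variance left these differences as they were and could not change a sign. None of the genes passed in any alternative, and the cause of the sign changes was not tested. Signs changed after quantile normalization for Dlg4 (0.0487), Dlgap4 (0.011), Baiap2 (0.0502) and Lhfpl4 (0.0234). They changed after the median shift for Dlg4 (0.0543), Baiap2 (0.0368) and Lhfpl4 (0.0119), and with array weights for Dlg4 (0.0899) and Camk2d (−0.0236). With a gene's tested probe sets averaged they changed for Dlg2 (0.0176), Dlg4 (0.1051), Camk2a (−0.0442) and Camk2g (0.0611). Leaving out 1 array, the ranges of genes that changed sign were Dlg2 −0.2523 to 0.0206, Dlg4 −0.1354 to 0.2117, Dlgap1 −0.6307 to 0.0859, Dlgap3 −0.1858 to 0.0086, Camk2a −0.3576 to 0.4363, Camk2b −0.2524 to 0.019, Camk2d −0.0755 to 0.05 and Camk2g −0.1842 to 0.0205. The others were Baiap2 −0.3093 to 0.156, Sipa1l1 −0.4297 to 0.003, Cnksr2 −0.3037 to 0.0778, Nrxn2 −0.0361 to 0.337, Lrrtm1 −0.1378 to 0.0239, Iqsec3 −0.324 to 0.064 and Lhfpl4 −0.1016 to 0.0315. Genes that kept their sign also moved, such as Dlg1 (−0.1818 to −0.0852), Gphn (−0.2067 to −0.0964), Nrgn (−0.1853 to −0.0693) and Nrxn3 (−0.2993 to −0.0231). The median of the 25 was −0.18 to −0.07. Of the 32 within-array pairs, 0 did not overlap. With 1 array fewer 2 to 5 did not, and in 2 all 3 same-numbered pairs went 1 way. Fewer arrays separate more easily and no share over all probe set pairs was taken, so neither count is read as a difference. Shank1 against Shank3 was not run because Shank1 lay below the filter.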
